A study of Gallus gallus and Anas platyrhynchos and Coturnix japonica with 43 samples.

Results

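A set of 10 genes of fatty acid synthesis and desaturation were read on a chicken cDNA array in 4 chicken tissues and in the livers and hypothalami of other birds. They were FASN, ACACA, SCD, ACLY, THRSP, ELOVL5, ELOVL2, FADS1, FADS2 and SREBF1, and their spots were taken by the gene symbol in the array's annotation. The symbols covered 22 cDNA clones on 23 spots, of 18547 clones on 19200 spots of the whole array, and 10 of its 6428 named genes. FADS2 had 4 clones, ACLY, ELOVL5 and FADS1 had 3 each, FASN, SREBF1 and THRSP had 2 each, and ACACA, ELOVL2 and SCD had 1 each. Clones are named here by gene and by the accession of their sequence tag.

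De novo lipogenesis turns the carbon of carbohydrate into fatty acids. ATP citrate lyase (ACLY) makes acetyl-CoA from citrate, acetyl-CoA carboxylase (ACACA) makes malonyl-CoA from it, and fatty acid synthase (FASN) builds palmitate from both. Stearoyl-CoA desaturase (SCD) puts a double bond into saturated chains, while the desaturases FADS1 and FADS2 and the elongases ELOVL5 and ELOVL2 extend and desaturate polyunsaturated chains. SREBF1 encodes a transcription factor that drives many of these genes, and THRSP is a small protein that responds to thyroid hormone and goes with high rates of lipogenesis. In birds the liver is the main site of this synthesis, and adipose tissue mostly stores the product.

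On each of the 43 arrays Cy3-labelled RNA from a tissue was hybridised beside a Cy5-labelled chicken reference, in which 4 chicken tissues (hypothalamus, breast muscle, abdominal fat and liver) had equal shares. The labelled reference was remade between hybridisation sets, which the labels do not list by array. The groups were liver of White turkey, duck and Japanese quail (4 arrays each), liver of American kestrel and Tree sparrow (3 each), chicken liver, breast muscle, abdominal fat and hypothalamus (4 each), and hypothalamus of turkey, quail and duck (3 each). Chicken liver, fat and muscle came from broiler (Ross x Cobb) cockerels of 6 weeks, and chicken hypothalamus from males of a lean line at 9 weeks, so tissue, line and age cannot be told apart where hypothalamus is compared. Fat and muscle RNA was extracted with guanidine thiocyanate and caesium chloride, and the other RNA with columns, so tissue and extraction cannot be told apart where fat or muscle is compared with liver or hypothalamus. Kestrels and sparrows came from captive colonies, and the sources used here give no age or sex for the birds other than chicken. The broilers, quail and ducks were fed freely, and feeding of the turkeys, kestrels and sparrows is not described. No animal carried a transgene or a treatment that the labels name. Nothing in the labels states that arrays of a group stand for different animals, so p-values cover only the spread among these arrays, which may be technical.

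All values below are log2 ratios, likely with the sample as numerator, after subtraction of the array's median. A difference is the first group minus the second, on the log2 scale, with its standard error (SE) from limma fitted to all clones and all 43 arrays. A clone was called at a Benjamini-Hochberg adjusted p under 0.05 over all 18547 clones of a comparison. The numerator of the deposited ratio is not given, and the reading as sample over reference rests on tissue markers. The median of 11 measured hepatocyte genes was 0.57 to 0.94 on the chicken liver arrays, against -2.20 to -1.11 on the fat arrays. The median of 7 adipocyte genes was -1.10 to -0.32 on the chicken liver arrays, against 0.19 to 1.11 on the fat arrays. A clone's linear ratios over the 4 chicken tissues, which made up the pool in equal parts, should average near 1. That mean was 0.878 for THRSP clone AW355634 as read and 3.21 with the ratio turned round, and 0.827 and 1.78 for FASN clone BG711257. Its median over 51 tissue marker clones was 0.737 as read and 2.11 turned round. The median over all clones, 1.02 as read and 1.03 turned round, does not separate the readings. Of the 22 member clones 15 lay nearer 1 as read and 7 nearer 1 turned round, so the direction is likely and not settled by this mean.

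Marker levels of several arrays stood apart from their labels. The median of 9 skeletal muscle genes was -1.75 on chicken muscle replicate 4, against 1.03 to 1.47 on the other muscle arrays. It was 1.58 on sparrow liver replicate 1, against -2.07 and -1.30 on the other sparrow livers. The median of 7 neuron genes was -0.54 on duck hypothalamus replicate 3, against 0.50 and 1.01 on the other duck hypothalami. These 3 arrays were kept under their labels, and calls of single clones that rest on them are also given without them. Quail liver replicate 2 is not counted among these 3 arrays, although some of its markers were also out of line. Its adipocyte median was 0.20, against -1.10 to -0.44 on the other quail livers. The neuron median was 0.12 there, against -1.84 to -0.93, while the hepatocyte median was 0.86, the highest of the quail livers. Chicken liver replicate 3 is not counted either. Its neuron median was -0.32, against -1.66 to -0.89 on the other chicken livers. Its median of 4 glia and myelin genes was 0.18, against -1.45 to -0.81. Its hepatocyte median was 0.94, the highest of the chicken livers. Other values, among them averages over the clones of a gene, include all arrays unless stated. Counts of groups that do not overlap include all arrays. The hepatocyte median was -1.56 to -0.89 in kestrel liver and -1.61 to -0.91 in sparrow liver, within the -2.30 to -0.80 of the chicken tissues other than liver. It was -0.74 to 0.11 in duck liver, -0.01 to 0.86 in quail liver and -0.18 to 1.07 in turkey liver. Every spot is a chicken cDNA, so in the other species a lower transcript level and a poorer match of its sequence to the clone cannot be told apart.

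**Figure D1:**
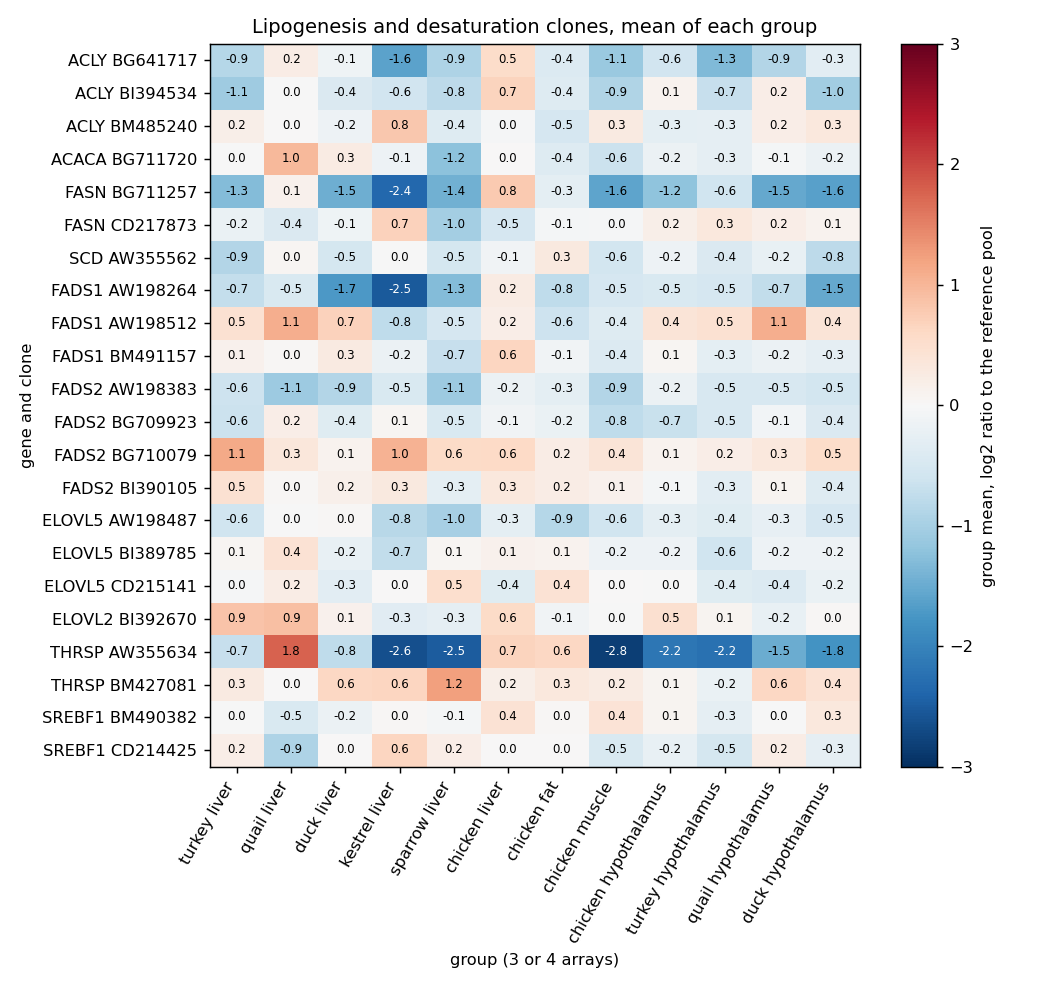
Mean log2 ratio (centred per array) of each of the 22 clones in each of the 12 groups, with 3 or 4 arrays per group. THRSP AW355634 has the widest range of group means, 4.59, between 1.77 in quail liver and -2.82 in chicken muscle. The quail liver mean includes replicate 2, whose adipocyte and neuron medians were out of line. The other THRSP clone, BM427081, spans 1.43.

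The 22 clones differed widely in how far they varied between groups. THRSP AW355634 had a range of 4.59 between its highest and lowest group mean, and only 3 of the 18547 clones on the array (0.0162%) had a wider one. Its highest mean, in quail liver, included replicate 2, the highest array there, whose adipocyte and neuron medians were out of line. FASN BG711257 spanned 3.14, which 1.07% of clones exceeded, FADS1 AW198264 spanned 2.77 (2.16%) and ACACA BG711720 spanned 2.21 (4.94%). ACLY BG641717 followed at 2.15 (5.40%). The lowest group mean was in kestrel liver for these FASN, FADS1 and ACLY clones, and in sparrow liver for ACACA. There a lower level and a poorer match to the chicken clone cannot be told apart. The other clones spanned 0.84 to 1.85, and the median over all clones of the array was 1.19. Clones of 1 gene often disagreed. Pearson's r between the 12 group means of a pair of clones of the same gene had a median of 0.189 over the 18 member pairs, against 0.0542 over 4747 such pairs of 2601 genes on the array. These correlations are descriptions, since all points share the same arrays and reference. The pairs of ACLY ran from -0.33 to 0.57, those of FADS1 from 0.33 to 0.38, and those of FADS2 from -0.03 to 0.42. Those of ELOVL5 ran from -0.62, the lowest of the member pairs, to 0.40, and the SREBF1 pair had 0.25. The FADS2 clone BI390105 was the only member on more than 1 spot, and its first spot read higher than the second on 36 of 43 arrays, by a median of 0.81.

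Among the members THRSP had the largest called differences between chicken tissues, all in clone AW355634. That clone read 0.86, -0.75, 0.77 and 1.83 in chicken liver. In chicken fat it read -0.87, 0.99, 0.77 and 1.64, in muscle -3.31, -3.56, -1.62 and -2.80, and in hypothalamus -0.96, -2.17, -2.94 and -2.59. Liver and fat overlapped almost wholly, while every muscle and hypothalamus array lay below every liver and fat array. In these whole tissues fewer cells of a type and less RNA per cell cannot be told apart. Liver minus muscle was 3.50 (SE 0.57, adjusted p = 0.000111) and liver minus hypothalamus 2.84 (SE 0.57, adjusted p = 0.00214). Fat minus muscle was 3.45 (SE 0.57, adjusted p = 0.000312) and fat minus hypothalamus 2.80 (SE 0.57, adjusted p = 0.00508). Without the 3 arrays whose markers stood apart, fat minus muscle was 3.46 (adjusted p = 0.000481). Liver minus fat was 0.04, with a 95% interval of -1.11 to 1.19.

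The second THRSP clone did not show this pattern. BM427081 read 0.69, 0.04, -0.12 and 0.13 in chicken liver, and 0.76, 0.86, -0.36 and -0.04 in chicken fat. In muscle it read -1.48, 1.45, 0.51 and 0.49, and in hypothalamus -0.38, 0.06, 0.29 and 0.31. The 4 tissues overlapped. Liver minus muscle was -0.06, with a 95% interval of -1.26 to 1.15, and liver minus hypothalamus was 0.11, with an interval of -1.09 to 1.32. Over the 12 group means the clones had r = -0.32. In the current chicken gene table THRSP lies beside THRSPB, a gene with a related name. Which of them each clone's sequence matches was not tested.

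**Figure D2:**
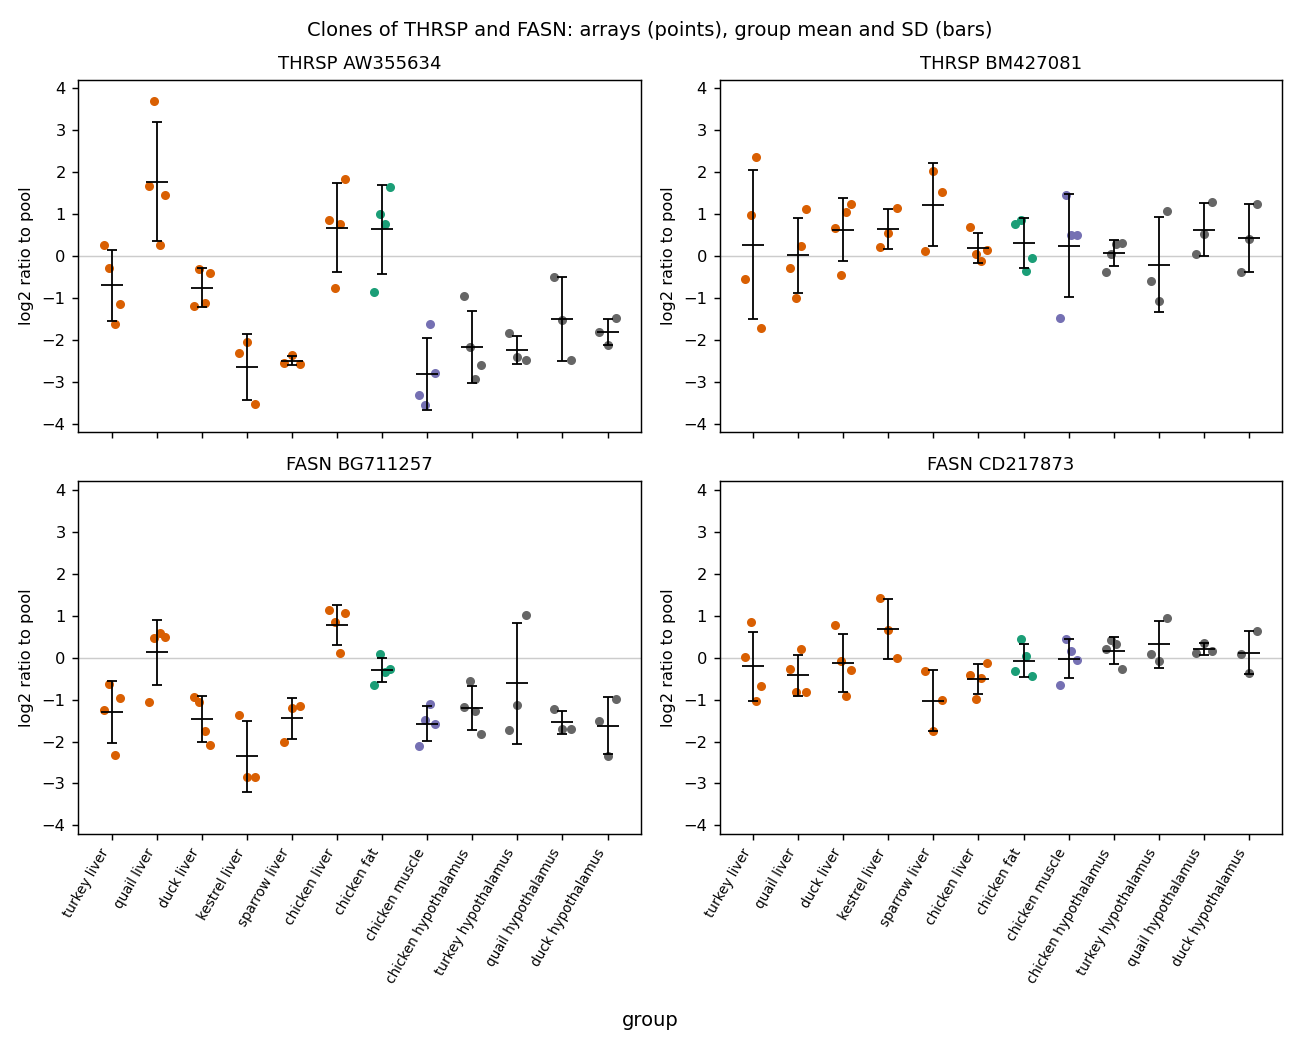
Log2 ratio (centred per array) of both THRSP clones and both FASN clones on each of the 43 arrays, by group; each point is 1 array, and the bars give the group mean and SD. THRSP AW355634 separates chicken liver and fat from muscle and hypothalamus, while BM427081 overlaps across the 4 chicken tissues.

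FASN, the enzyme that completes palmitate, also split by clone. BG711257 read 1.13, 0.84, 0.10 and 1.07 in chicken liver, -0.64, 0.07, -0.34 and -0.27 in fat, -2.11, -1.49, -1.11 and -1.59 in muscle, and -1.19, -0.55, -1.28 and -1.83 in hypothalamus. Every liver array lay above every array of the other 3 chicken tissues. Liver minus muscle was 2.36 (SE 0.47, adjusted p = 0.00182) and liver minus hypothalamus 1.99 (SE 0.47, adjusted p = 0.0123). The call against hypothalamus was lost without hypothalamus replicate 4 (adjusted p = 0.0931), liver replicate 1 (0.0687) or liver replicate 4 (0.0558). Liver minus fat was 1.08 (SE 0.47), with an adjusted p of 0.543. The other FASN clone, CD217873, read -0.43, -0.997, -0.48 and -0.13 in liver, against -0.32, 0.44, 0.04 and -0.44 in fat. It read -0.67, 0.43, 0.16 and -0.05 in muscle and 0.19, 0.43, 0.32 and -0.28 in hypothalamus, and all 3 of these tissues overlapped liver. Its liver minus fat difference was -0.44, with a 95% interval of -1.28 to 0.40, and its r with BG711257 over the 12 group means was -0.45.

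Chicken liver was compared with chicken fat clone by clone. No member was called in limma at an adjusted p under 0.05, while 371 of all 18547 clones were called, a background of 2.00%. The differences of the members were mostly positive, in 17 of 22 clones (77.3%), against 52.4% of all clones, although clones of the same gene are not independent. Their median was 0.39, against 0.03 over all clones. At an unadjusted p under 0.05 there were 3 members, against 6.52% of all clones. With array weights in the fit the same 3 were called, all higher in liver. That fit called 741 of all 18547 clones, 372 of them higher.

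Those 3 clones belong to the acetyl-CoA, palmitate and polyunsaturate steps. ACLY BG641717 read 0.90, 0.35, 0.56 and 0.35 in liver, against -0.12, -0.47, -0.20 and -0.84 in fat, with no overlap. Its difference was 0.95 (SE 0.41, adjusted p = 0.517), and 1.12 (adjusted p = 0.0354) with array weights. FASN BG711257 also did not overlap, and its difference was 1.24 (adjusted p = 0.0494) with array weights. FADS1 AW198264 read 0.90, -0.63, -0.17 and 0.89 in liver, against -1.12, -0.89, -0.38 and -0.65 in fat, with overlap. Its difference was 1.00 (SE 0.48, adjusted p = 0.692), and 1.27 (adjusted p = 0.0369) with array weights. The groups of 2 member clones did not overlap, against 5.29% of all clones.

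The remaining clones gave no call in liver against fat. Both other ACLY clones had positive differences, 1.06 (95% interval -0.02 to 2.13) for BI394534 and 0.47 (-0.62 to 1.56) for BM485240. The other FADS1 clones, AW198512 and BM491157, differed by 0.80 (-0.45 to 2.05) and 0.76 (-0.13 to 1.65). All 4 FADS2 clones lay between 0.07 and 0.37. ACACA, which commits acetyl-CoA to synthesis, differed by 0.40 (-0.56 to 1.36) and ELOVL2 by 0.69 (-0.31 to 1.68). SCD differed by -0.41 (-1.19 to 0.37): it read 0.12, -0.85, -0.06 and 0.37 in liver, and -0.34, 1.04, 0.47 and 0.04 in fat. The 3 ELOVL5 clones spread over 0.56, 0.03 and -0.81, and the lowest, CD215141, read -0.32, -0.55, 0.24 and -0.83 in liver and 0.65, 0.37, 0.54 and 0.21 in fat. The SREBF1 clones differed by 0.40 and -0.02.

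**Figure D3:**
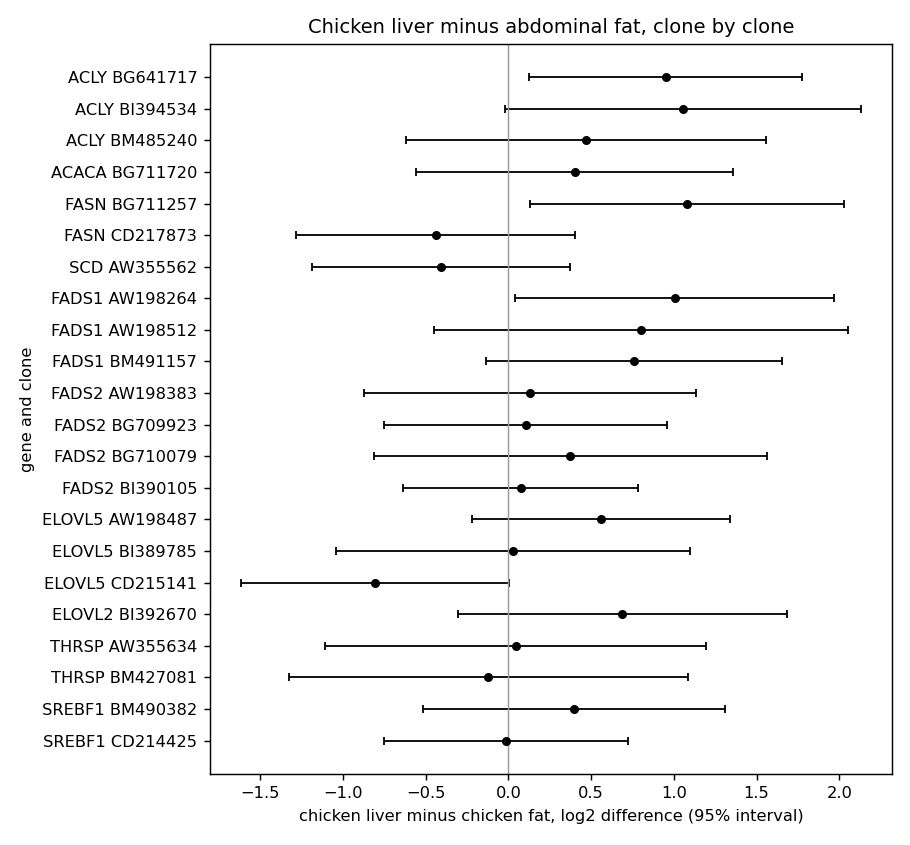
Difference of chicken liver minus chicken fat (log2) for each of the 22 clones, with 95% intervals from limma and 4 arrays per tissue. The differences run from -0.81 (ELOVL5 CD215141) to 1.08 (FASN BG711257), 17 of 22 are positive, and no clone was called.

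Against muscle, 3 members were called higher in liver, ACLY BG641717, FASN BG711257 and THRSP AW355634, and none lower. On the whole array 235 clones were called higher in this comparison, a background of 1.27%. ACLY BG641717 read -1.84, -1.03, -0.57 and -1.004 in muscle, below all 4 liver arrays. Its difference was 1.65 (SE 0.41, adjusted p = 0.0170), and the call was lost without muscle replicate 1 (adjusted p = 0.157), muscle replicate 2 (0.0559) or liver replicate 1 (0.0909), and without centring (0.135). Without the 3 arrays whose markers stood apart, the same clones were called, with differences of 1.69 for ACLY, 2.36 for FASN and 3.50 for THRSP. The groups of 5 member clones did not overlap, against 3.56% of all clones. Among them was the ACLY clone BI394534, at 0.44, 0.60, 1.18 and 0.43 in liver and -1.58, -0.41, -0.69 and -0.95 in muscle (difference 1.57, SE 0.54, adjusted p = 0.209). BI394534 was called with equal median absolute deviation (adjusted p = 0.049), array weights (0.0296) and only the compared groups in the fit (0.0228). The remaining ACLY clone, BM485240, went the other way, with means of -0.03 in liver and 0.26 in muscle.

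Against hypothalamus, 2 members were called higher in liver, FASN BG711257 and THRSP AW355634, with a background of 1.01% (187 clones called higher). The groups of 4 member clones did not overlap there, against 5.22% of all clones. ACLY BG641717 joined the calls against hypothalamus with array weights (1.305, adjusted p = 0.00416) and with equal median absolute deviation (1.39, adjusted p = 0.0478). In fat, THRSP AW355634 alone was called, higher than in muscle (background 0.593%, 110 clones) and than in hypothalamus (background 0.545%, 101 clones). Member clones whose groups did not overlap numbered 3 and 1 there, against 4.12% and 4.14% of all clones. FASN BG711257 did not pass in fat minus muscle, at 1.28 (SE 0.47, adjusted p = 0.360), although the arrays did not overlap, nor without the 3 arrays whose markers stood apart (adjusted p = 0.438). Averaging the clones of a gene left THRSP called in all 4 of these comparisons. It differed by 1.72 (adjusted p = 0.00639) and 1.48 (0.0284) for liver against muscle and hypothalamus. For fat the values were 1.76 (0.0106) and 1.52 (0.0336). These averages rest on AW355634, since BM427081 overlapped across the 4 chicken tissues. ACLY stayed called in liver against muscle (0.98, adjusted p = 0.0281), although its clone BM485240 averaged higher in muscle. FASN lost both calls, at 0.94 against muscle (adjusted p = 0.409) and 0.66 against hypothalamus (adjusted p = 0.731). How many of all 6428 genes were called in the averaged fits was not counted, so these gene calls have no background.

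The counts over all clones rested partly on single arrays. Both directions together, the lowest with an array left out were 143 calls, against 278 with all arrays, in liver minus muscle (without muscle replicate 2) and 144, against 254, in liver minus hypothalamus (without hypothalamus replicate 4). They were 44, against 156, in fat minus muscle (without fat replicate 3) and 64, against 138, in fat minus hypothalamus (without hypothalamus replicate 4).

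Other genes of the pathway were read from lists of partner genes. Of 16 clones for carbon and NADPH supply, 0 were called in liver against fat and 1 higher in liver against muscle (235 of all 18547 clones). That clone was SLC25A1 BG713015, the mitochondrial citrate carrier that supplies ACLY's substrate. Its level was 0.82 in liver and -1.98 in muscle, which gave a difference of 2.81 (SE 0.67, adjusted p = 0.0123). Without the 3 arrays whose markers stood apart it was 3.11 (adjusted p = 0.00760), and a second SLC25A1 clone, BI064869, was called at 2.04 (adjusted p = 0.0432). Of 15 clones for acyl-CoA and malonyl-CoA steps, 2 were lower in liver than in fat (144 of all 18547 clones) and 0 higher. Both were of ACSL1, which activates long-chain fatty acids for storage or oxidation. BG711662 averaged -1.20 in liver and 1.14 in fat. It differed by -2.34 (SE 0.56, adjusted p = 0.00962), and BM491403 differed by -2.02 (SE 0.52, adjusted p = 0.0204). Both ACSL1 clones were also higher in fat than in muscle and hypothalamus, by 2.39 to 2.86. Without those 3 arrays fat minus muscle was 2.72 for BG711662 (adjusted p = 0.00747) and 2.85 for BM491403 (adjusted p = 0.00176). None of the 11 clones of elongation partners, 16 of desaturation partners and 39 of regulators was called in any of the 5 chicken comparisons. Their list medians in liver minus fat were -0.03, -0.06 and 0.01, and that of all clones was 0.03. In those 5 comparisons 138 to 371 of all 18547 clones were called, a share at which lists of this size can hold 0 calls.

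The livers of the other birds were then set against chicken liver. These comparisons share the chicken arrays. Most calls over all clones were lower than in chicken liver. They numbered 180 lower and 2 higher in duck, 239 and 5 in kestrel, and 156 and 0 in sparrow. In turkey they were 9 lower and 0 higher, and in quail 70 and 6. A lower call was thus not particular to the members. FASN BG711257 read -1.26, -0.64, -2.33 and -0.96 in turkey liver, -1.05, 0.48, 0.59 and 0.48 in quail liver and -0.94, -1.06, -1.74 and -2.09 in duck liver. It read -1.37, -2.85 and -2.85 in kestrel liver and -2.01, -1.19 and -1.15 in sparrow liver. Only the quail arrays overlapped those of chicken liver, which ran from 0.10 to 1.13. The differences from chicken were -2.08 in turkey (SE 0.47, adjusted p = 0.0524) and -0.66 in quail. They were -2.25 in duck (SE 0.47, adjusted p = 0.00620), -3.14 in kestrel (SE 0.51, adjusted p = 0.000152) and -2.23 in sparrow (SE 0.51, adjusted p = 0.0125).

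THRSP AW355634 read 0.26, -0.29, -1.63 and -1.14 in turkey liver, 1.67, 3.70, 0.27 and 1.45 in quail liver and -1.19, -0.30, -1.13 and -0.40 in duck liver. It read -2.32, -2.06 and -3.53 in kestrel liver and -2.54, -2.37 and -2.58 in sparrow liver. The quail value of 3.70 came from replicate 2, whose adipocyte and neuron medians were above those of the other quail livers. The kestrel and sparrow arrays lay below all chicken liver arrays, and those of the other birds overlapped them. The differences from chicken were -3.31 in kestrel (SE 0.62, adjusted p = 0.00140) and -3.17 in sparrow (SE 0.62, adjusted p = 0.00177). They were -1.38 in turkey (adjusted p = 0.802), 1.09 in quail (adjusted p = 0.618) and -1.43 in duck (adjusted p = 0.403). The duck difference was called with array weights (-1.64, adjusted p = 0.0239).

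**Figure D4:**
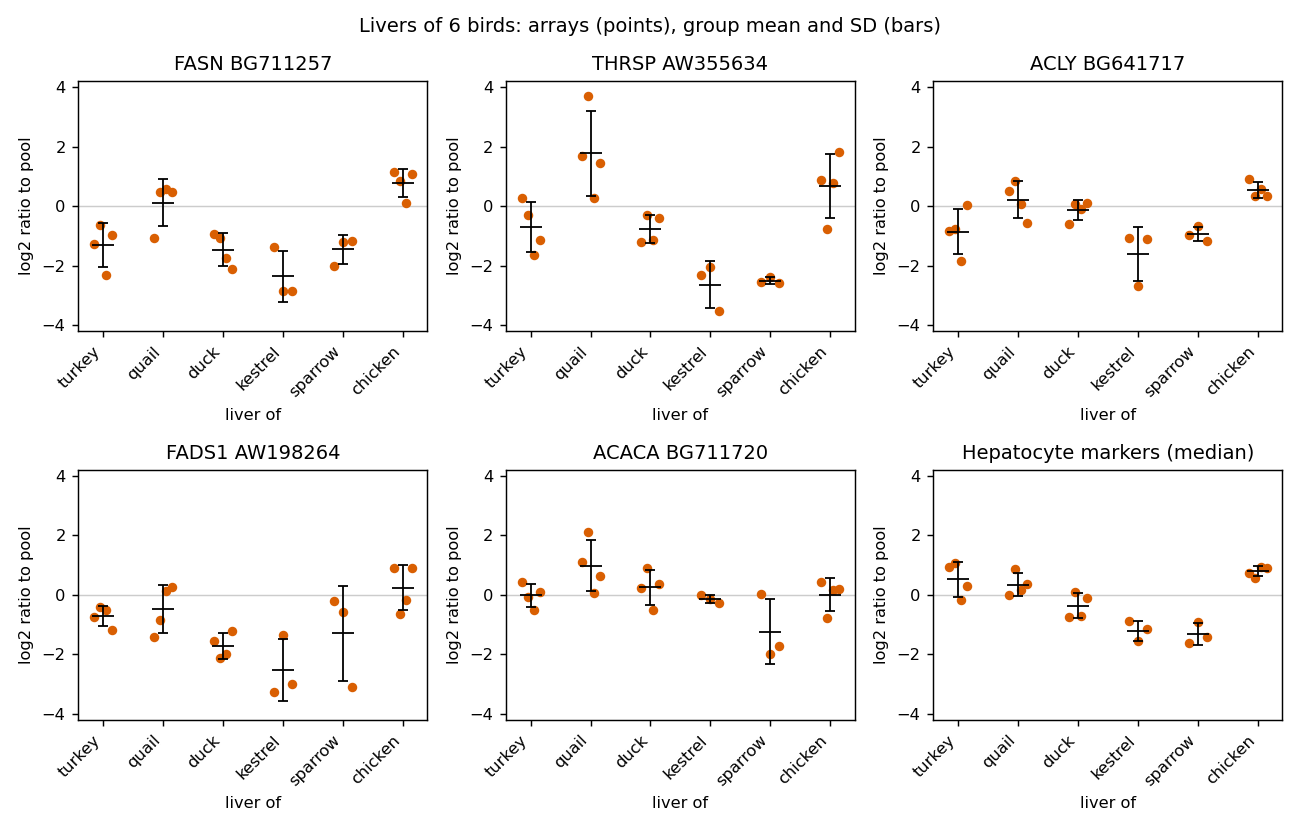
Log2 ratio (centred per array) of FASN BG711257, THRSP AW355634, ACLY BG641717, FADS1 AW198264 and ACACA BG711720, and the median of the hepatocyte markers, in the livers of the 6 birds; each point is 1 array, and the bars give the group mean and SD. FASN BG711257 lies below chicken liver in turkey, duck, kestrel and sparrow, THRSP AW355634 is lowest in kestrel and sparrow, and so are the hepatocyte markers.

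In turkey liver 0 members were called in limma, with a background of 0.0485% (9 clones). At an unadjusted p under 0.05 there were 5 of 22 members, against 5.01% of all clones. The groups of 2 members did not overlap, against 3.37% of all clones. FASN BG711257 passed there with array weights and without the 3 arrays whose markers stood apart. Averaged over both its clones, FASN differed by -0.89 and was not called (adjusted p = 0.809). In quail liver 0 were called, with a background of 0.410% (76 clones). At an unadjusted p under 0.05 there were 2 of 22, against 8.63% of all clones. The groups of 2 members did not overlap, against 4.94% of all clones. The members with an unadjusted p under 0.05 were ACACA, at 1.12, 2.10, 0.07 and 0.64 in quail against 0.44, -0.79, 0.17 and 0.21 in chicken, and SREBF1 CD214425. The quail ACACA value of 2.10 also came from quail liver replicate 2. The SREBF1 clone read -0.93, -0.78, -1.04 and -0.92 in quail liver, against 0.23, 0.27, -0.15 and -0.33 in chicken liver, without overlap (difference -0.92, SE 0.37, adjusted p = 0.395).

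In duck liver 2 members were called, both lower, with a background of 0.971% (180 clones called lower). The groups of 4 members did not overlap, against 5.82% of all clones. Beside FASN this was FADS1 AW198264, at -1.56, -2.13, -1.99 and -1.20 in duck against 0.90, -0.63, -0.17 and 0.89 in chicken (difference -1.96, SE 0.48, adjusted p = 0.0229). That call was lost without chicken liver replicate 1 or 4 or duck liver replicate 2 or 3, with adjusted p from 0.0867 to 0.138. The FASN call was lost without duck liver replicate 4 (adjusted p = 0.0527). The other FADS1 clones lay at 0.69 and 0.27 on average in duck liver and at 0.19 and 0.65 in chicken liver. Averaged over the clones of a gene, neither was called: FASN differed by -0.93 (adjusted p = 0.438) and FADS1 by -0.61 (adjusted p = 0.705).

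In kestrel liver 4 members were called, all lower, with a background of 1.29% (239 clones called lower). The groups of 7 members did not overlap, against 7.87% of all clones. Beside FASN and THRSP these were ACLY BG641717, at -1.07, -2.67 and -1.10, and FADS1 AW198264, at -3.25, -1.34 and -2.98. Their differences were -2.15 (SE 0.44, adjusted p = 0.00366) and -2.77 (SE 0.52, adjusted p = 0.00141). The ACLY call was lost without kestrel liver replicate 2 (adjusted p = 0.109). In sparrow liver 2 members were called, both lower, with a background of 0.841% (156 clones called lower). The groups of 5 members did not overlap, against 5.46% of all clones. ACACA BG711720 had its lowest mean of the 12 groups in sparrow liver, at -1.23 against 0.01 in chicken liver, and was not called. Without sparrow liver replicate 1 and the other 2 arrays whose markers stood apart, THRSP remained called (-3.15, adjusted p = 0.0121) and FASN did not (-1.96, adjusted p = 0.0817). FASN was likewise not called without chicken liver replicate 1 (adjusted p = 0.0564) or 4 (0.0533). ACLY BG641717 was called lower in sparrow liver with quantile normalisation (-1.665, adjusted p = 0.0372).

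With an array left out, the lowest counts over all clones were 75 in duck (without duck liver replicate 4), 78 in kestrel (without kestrel liver replicate 3) and 67 in sparrow (without sparrow liver replicate 3), against 182, 244 and 156 with all arrays.

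The hepatocyte markers were also low on the kestrel and sparrow arrays, and lower in duck than in chicken liver. ALB, the main plasma protein, averaged -1.11 in duck, -2.06 in kestrel and -1.78 in sparrow liver, against 0.82 in chicken liver. Their part in the member differences was not tested. The second THRSP clone, BM427081, averaged 0.64 in kestrel and 1.22 in sparrow liver, and 0.18 in chicken liver. The second FASN clone averaged 0.69 in kestrel and -1.03 in sparrow liver, and -0.51 in chicken liver, with differences of 1.20 (SE 0.45, adjusted p = 0.288) and -0.52 (SE 0.45, adjusted p = 0.982). The ACLY clone BI394534 averaged -0.57 in kestrel and -0.80 in sparrow liver, and 0.66 in chicken liver, with differences of -1.23 (SE 0.58, adjusted p = 0.547) and -1.46 (SE 0.58, adjusted p = 0.504). The remaining ACLY clone, BM485240, was higher in kestrel liver, at 0.81, than in chicken liver, at -0.03, and averaged -0.38 in sparrow liver. Averaging the clones of a gene left FADS1 called in kestrel (-1.51, adjusted p = 0.0195) and not THRSP, FASN or ACLY (adjusted p of 0.0796, 0.401 and 0.144). In sparrow, with all arrays kept, it called ACLY (-1.09, adjusted p = 0.0362) and not THRSP or FASN (0.400 and 0.114). Calls over all 6428 genes were not counted for these averages, so they have no background. SCD averaged -0.02 in kestrel and -0.53 in sparrow liver, and -0.11 in chicken liver.

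Liver was also compared with hypothalamus within the other species. In quail 1 member was called higher, with a background of 0.426% (79 clones), and the groups of 5 did not overlap (6.60% of all clones). THRSP AW355634 read -0.49, -1.52 and -2.48 in quail hypothalamus, below all 4 quail livers, and the difference was 3.27 (SE 0.62, adjusted p = 0.00289). The call was lost without quail hypothalamus replicate 3 (adjusted p = 0.0855), with arrays scaled to equal spread (0.0988) and with only the quail groups in the fit (0.213). In turkey (background 0.566%, 105 clones) and in duck (0.0108%, 2 clones) 0 members were called in limma, with 2 and 0 at an unadjusted p under 0.05, against 5.44% and 4.87% of all clones. In duck 0 were also called without the 3 arrays whose markers stood apart, where THRSP AW355634 differed by 1.21 and FASN BG711257 by 0.48. The groups of 2 members did not overlap in turkey and of 1 in duck, against 4.50% and 4.26% of all clones. THRSP AW355634 did not overlap in either, and its differences were 1.54 in turkey (SE 0.62, adjusted p = 0.705) and 1.05 in duck (SE 0.62, adjusted p = 0.963). FASN BG711257 differed by 1.66 in quail (SE 0.51, adjusted p = 0.197), 0.16 in duck and -0.69 in turkey, where hypothalamus replicate 3 read 1.02 and the others -1.72 and -1.13.

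Whether liver minus hypothalamus differed between species was tested as a difference of differences in the same fit. No member was called for turkey, quail or duck against chicken, and at an unadjusted p under 0.05 there were 1, 1 and 2, against 1.55%, 4.73% and 5.35% of all clones. The backgrounds were 0% for turkey and quail and 0.0593% for duck (11 clones, and 2 without the 3 arrays whose markers stood apart). The largest was FASN BG711257 in turkey, at -2.68 (SE 0.69, adjusted p = 1). For THRSP AW355634 the values were -1.30 in turkey, 0.43 in quail and -1.79 in duck (SE 0.84 each), with adjusted p of 1, 0.986 and 0.895. Without those 3 arrays the duck value was -1.63 (SE 0.93).

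The order of group means summarised the 2 clones with the widest ranges. THRSP AW355634 ran from quail liver (1.77 ± 1.42) through chicken liver (0.68 ± 1.07) and chicken fat (0.63 ± 1.07) to turkey liver (-0.70 ± 0.85) and duck liver (-0.76 ± 0.47). The 4 hypothalami followed at -1.50 to -2.24, then sparrow liver, kestrel liver and chicken muscle at -2.50 to -2.82. The quail liver mean at the top included replicate 2, the highest array there, whose adipocyte and neuron medians were out of line. FASN BG711257 ran from chicken liver (0.79 ± 0.47) through quail liver (0.12 ± 0.79) and chicken fat (-0.30 ± 0.29) to kestrel liver (-2.36 ± 0.85), all as SD with n = 3 or 4. Arrays of neighbouring groups overlapped at every step of both orders.

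Genes with the most similar pattern over the 12 group means were listed for the 4 clones with the widest ranges, among 9926 named clones outside the members. For THRSP AW355634 they were C1QTNF7 (r = 0.97), TM2D3 (0.92) and EZH2 (0.90), and for FASN BG711257 ATAD1 (0.93), INSIG2 (0.91) and APP (0.89). For FADS1 AW198264 they were PRDX3 (0.89), ALG3 (0.89) and SPIA9 (0.87), and for ACACA ANAPC2 (0.89), LCAT (0.88) and MAPRE2 (0.85). The points share arrays and the reference, and these are the highest of many values.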

How the data were processed

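Samples were measured on spotted 2-colour chicken cDNA arrays, per the labels. The authors deposited 1 value per spot and array, read here as a linear ratio, since 0 values were at or below 0 and array medians ran from 0.535 to 1.83. The sources used here name no scanner, background correction, normalization or numerator. Without intensities the signal over background cannot be read, and precision is limited by how many arrays there are and how well they agree. Over all clones, the 57 pairs of arrays within a group had a median correlation of 0.292, from -0.169 to 0.63. The 48 print blocks of spots held 2.44% to 37.7% of the log2 variance of an array. Their share was 36.9% on chicken liver replicate 4 and 37.7% on chicken muscle replicate 3.

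Ratios were put on the log2 scale and centred on each array's median, and spots of 1 clone were averaged, which left 18547 clones. Of 19200 spots, 10601 carried 1 gene symbol, 0 several and 8599 none; 10455 matched the current chicken gene table (GRCg7b), which was used for names and neighbours only. Group means of the 12 groups were fitted over 43 arrays in R 4.3.3 with limma 3.58.1 (lmFit, eBayes), and p-values of each of 16 comparisons were adjusted over all clones by Benjamini and Hochberg's method, called under 0.05. The script was tested on simulated data. Other steps used Python 3.11.15, numpy 2.4.6, pandas 2.3.3 and matplotlib 3.10.9.

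All clones of the 10 genes are named; other pathway genes are named where called, and look-alikes are the 3 highest r. The members and lists were chosen with earlier results of these data known. Alternatives were no centring, equal median absolute deviation, quantile normalisation, print blocks centred, array weights (gene by gene), only the compared groups, a replicate block, clones averaged by gene, and arrays left out. By a rule on arrays with the same replicate number (every correlation of their deviations over 0.1), the numbers paired fat with muscle (0.195 to 0.442 over 4 pairs) and turkey liver with turkey hypothalamus (0.268 to 0.624 over 3 pairs), and not the groups of the other 11 comparisons. A block within those groups was added after seeing the data.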

Additional observations from a re-analysis of the deposited data

Results flagged for a closer look

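Among 154 groups of 4 arrays over the 22 clones, 8 held an array far from the other 3 by Dixon's test, and chance alone gives about 1 in 20. FASN BG711257 read -1.06 on quail liver replicate 1, against 0.48 to 0.59 on the other quail livers. SCD AW355562 read -0.60 on quail liver replicate 2, against 0.20 to 0.36, and -1.93 on turkey liver replicate 4, against -0.62 to -0.43. SREBF1 CD214425 read 0.74 on turkey liver replicate 2, against -0.05 to 0.06, and ELOVL2 BI392670 read 1.28 on duck liver replicate 2, against -0.36 to -0.09. FADS2 BG710079 read -0.33 on chicken liver replicate 3, against 0.82 to 1.00. On chicken muscle replicate 2, FADS1 BM491157 read 0.48, against -0.76 to -0.68, and ELOVL5 BI389785 read -0.40, against -0.10 to -0.07. None of these values was left out of a fit for this reason.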

How the results depend on the processing

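Among repeats of called clone differences under the alternatives, 229 stayed called in the same direction, 21 lost the call and 0 reversed. This tally included fits with an array left out, and not averages over the clones of a gene, which lost further calls. Counts of called members that moved by a ratio over 1.5 follow, and smaller moves are given with the comparisons above. The number of member clones called in liver minus fat was 3 with array weights, against 0. In turkey minus chicken liver it was 1 with quantile normalisation, array weights, the replicate block or without the 3 arrays whose markers stood apart, against 0. In duck minus chicken liver it was 1 without centring, against 2, where FADS1 AW198264 was -1.92 (adjusted p = 0.112); in sparrow minus chicken liver it was 1 without the 3 arrays whose markers stood apart, against 2. In quail liver minus hypothalamus it was 0 with equal median absolute deviation or with only the compared groups and 2 with array weights, against 1. Averaging the clones of a gene gave 1 called gene in liver minus hypothalamus (THRSP) and 0 in quail liver minus hypothalamus. Against chicken liver it gave 0 in duck, 1 in kestrel (FADS1) and 1 in sparrow (ACLY, with no clone called in the reported fit). The counts of called genes have no background, since calls over all genes were not counted. Leaving out single arrays gave 2 to 3 in liver minus muscle and 1 to 2 in liver minus hypothalamus. It gave 0 to 1 in turkey, 1 to 2 in duck and in sparrow, 3 to 4 in kestrel, and 0 to 1 in quail liver minus hypothalamus.

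Uncalled liver minus fat differences near 0 changed sign. SREBF1 CD214425 was 0.0406 with equal median absolute deviation, 0.12 with array weights and -0.23 to 0.17 with an array left out. THRSP AW355634 was -0.18 with print blocks centred and -0.46 to 0.52 with an array left out. ELOVL5 BI389785 was -0.0302 with print blocks centred, -0.0165 with array weights and -0.21 to 0.30 with an array left out. FADS2 BI390105 was -0.0034 with print blocks centred and -0.0874 to 0.180 with an array left out. THRSP BM427081 was 0.0794 with array weights and -0.342 to 0.0631 with an array left out; FADS2 AW198383 was -0.23 to 0.38 and FADS2 BG709923 -0.20 to 0.29.

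Over all clones and alternatives, arrays left out included, calls ran from 241 to 741 in liver minus fat (371 in the reported fit), 143 to 548 in liver minus muscle (278), 144 to 902 in liver minus hypothalamus (254), 44 to 361 in fat minus muscle (156) and 64 to 357 in fat minus hypothalamus (138). Against chicken liver they ran from 0 to 40 in turkey (9), 2 to 107 in quail (76), 75 to 708 in duck (182), 78 to 299 in kestrel (244) and 67 to 242 in sparrow (156). In liver minus hypothalamus they ran from 20 to 145 in turkey (105), 2 to 284 in quail (102) and 0 to 26 in duck (2). The difference of differences from chicken ran from 2 to 183 for duck (11), 0 to 36 for quail (0) and 0 to 1 for turkey (0). Liver minus hypothalamus in chicken had 203 higher and 33 lower calls without centring and 309 and 213 with quantile normalisation, against 187 and 67; fat minus muscle had 186 and 28 with equal median absolute deviation, against 110 and 46. Leaving the arrays uncentred shifted the median of all clones by 0.19 in chicken liver minus hypothalamus and 0.18 in fat minus hypothalamus. The shift was -0.18 in quail minus chicken liver. It was 0.26 in duck and -0.23 in quail liver minus hypothalamus. In the differences of differences it was largest, at -0.415, for quail, and -0.21 for turkey. The causes were not tested. Over all groups, deviations of same-numbered arrays had a median correlation of 0.03 (from -0.70 to 0.72). In liver and fat 3 of 4 same-numbered pairs correlated over 0.1 (from -0.119 to 0.596). Where numbers paired the groups, a replicate block of those groups gave 1 called member in fat minus muscle (157 clones in all) and 0 in turkey liver minus hypothalamus (85 in all), which changed no member's call. With the number as a replicate block of all arrays, the count of called members changed only in turkey minus chicken liver, to 1. Clones on a single spot carry the error of that spot.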
